A study of Mus musculus with 6 samples.

Results

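Glutamate receptors and their auxiliary subunits were described in RNA-seq libraries of the mouse habenula, a paired epithalamic nucleus whose medial and lateral divisions relay forebrain signals to midbrain monoamine and interpeduncular targets. The 35 genes were taken by symbol from a table of 55359 genes, each symbol matching 1 row. They comprise 4 AMPA, 7 NMDA, 5 kainate, 1 delta and 6 metabotropic receptor genes and 12 genes of auxiliary subunits. Libraries came from 3 Tet2 cKO and 3 WT habenulae of C57BL/6 mice aged 2 months, as total RNA from frozen tissue. Tet2 cKO stands for a conditional knockout of Tet2, whose enzyme product converts methylated cytosines to oxidised forms. The labels do not state the Cre driver, the deleted exons or whether each library was 1 animal. The p-values therefore measure the spread between these libraries, which may be technical.

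Ionotropic glutamate receptors are tetrameric cation channels. AMPA receptors carry fast excitatory currents, NMDA receptors pass calcium when glutamate and depolarisation coincide, and kainate receptors act on both sides of the synapse. Metabotropic receptors signal through G proteins, and auxiliary subunits set the surface number, gating and pharmacology of AMPA and kainate receptors. In the lateral habenula of rodents, glutamatergic input from the basal ganglia and hypothalamus, calcium-permeable AMPA receptors and NMDA-dependent burst firing have been described. In the medial habenula of mice, glycine-gated receptors containing the GluN3A subunit have been described.

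Library totals were 17441429 to 17917987 counts in Tet2 cKO and 16089676 to 17743639 in WT, of which the 35 genes took 0.344% to 0.372% in Tet2 cKO and 0.327% to 0.364% in WT. All 15 medial, 7 pan- and 12 lateral habenula markers averaged at least 1 FPKM (counts scaled to the exonic size of a gene and to the library total), and so did 12 of 12 thalamic markers. The thalamic markers summed to 682.8 to 765.7 FPKM in Tet2 cKO and 714.7 to 771.6 FPKM in WT. The pan-habenula markers summed to 154.1 to 202.1 FPKM in Tet2 cKO and 114.6 to 234.3 FPKM in WT. The levels below are those of the whole tissue, and the part of thalamus in them was not tested. Tet2 itself had 4.47, 4.02 and 3.96 FPKM in the libraries labelled Tet2 cKO, against 3.45, 3.46 and 3.71 FPKM in WT. This whole-gene level was not lower under that label, with a log2 difference of 0.22 (unadjusted p = 0.0174, adjusted p = 0.9999, edgeR). Each direction given is therefore that of the libraries so labelled. WT replicate 3 lay apart from the rest at -30.4 on the first principal component, and Tet2 cKO replicate 1 followed at -8.12, while the other 4 libraries lay between 6.73 and 14.8.

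TET enzymes act on methylated CpG sites, and DNA methylation was not analysed here. The 250 bases before the RefSeq start (build GRCm38.p6) are therefore shown only for the member with the highest level (Cnih2), the member with the smallest p between genotypes (Grin2c) and the only member below the expression filter (Grin3b), with each CG in capitals. They lie at chr19:5098522-5098771 on the minus strand, chr11:115267244-115267493 on the minus strand and chr10:79970474-79970723 on the plus strand.
Cnih2: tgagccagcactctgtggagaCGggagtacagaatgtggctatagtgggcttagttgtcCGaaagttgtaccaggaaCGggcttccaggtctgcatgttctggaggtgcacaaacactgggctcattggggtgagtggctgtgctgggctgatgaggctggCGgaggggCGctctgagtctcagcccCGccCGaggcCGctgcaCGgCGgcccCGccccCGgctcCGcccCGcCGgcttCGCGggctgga
Grin2c: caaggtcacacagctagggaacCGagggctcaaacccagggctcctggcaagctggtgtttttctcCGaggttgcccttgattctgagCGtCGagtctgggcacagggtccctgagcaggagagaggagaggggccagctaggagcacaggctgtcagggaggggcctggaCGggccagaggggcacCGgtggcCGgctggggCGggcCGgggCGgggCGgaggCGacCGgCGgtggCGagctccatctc
Grin3b: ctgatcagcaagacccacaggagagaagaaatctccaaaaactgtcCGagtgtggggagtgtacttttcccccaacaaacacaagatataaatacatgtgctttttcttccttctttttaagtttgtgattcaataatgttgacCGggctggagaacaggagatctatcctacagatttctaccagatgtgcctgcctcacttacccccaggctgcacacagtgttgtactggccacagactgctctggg
The letters CG occurred 17 times in the Cnih2 window, 15 times in that of Grin2c and 2 times in that of Grin3b. Of 32851 such windows in the reference, 92.1% held CG at least once, with a median of 6. The 27 windows found for 22 of the 35 members had a median of 12. CG reads the same on both strands, and the counts describe sequence, not methylation.

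All members but Grin3b reached a mean of 1 FPKM over the 6 libraries, and levels ran from 0.353 FPKM (Grin3b) to 82.2 FPKM (Cnih2), with a median over members of 10.7 FPKM. The median gene among the 14539 that passed this filter had 6.30 FPKM. Cnih2, Gria1, Cacng7, Gria4, Cacng4 and Shisa9 led the order. Cnih2 and Gria1, at 82.2 and 81.3 FPKM over 6 libraries, overlapped in range and cannot be ranked against each other. Cacng7 (62.7 FPKM) lay below every Gria1 and Cnih2 value, and above every value of Gria4 (30.2 FPKM). Ranges overlapped between Gria4 and Cacng4, between Cacng4 and Shisa9, and between Gria2 and Grin1, while the lowest Shisa9 library stood just above the highest of Gria2. Grm8 (1.16 FPKM) and Grin3b closed the order.

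**Figure D1:**
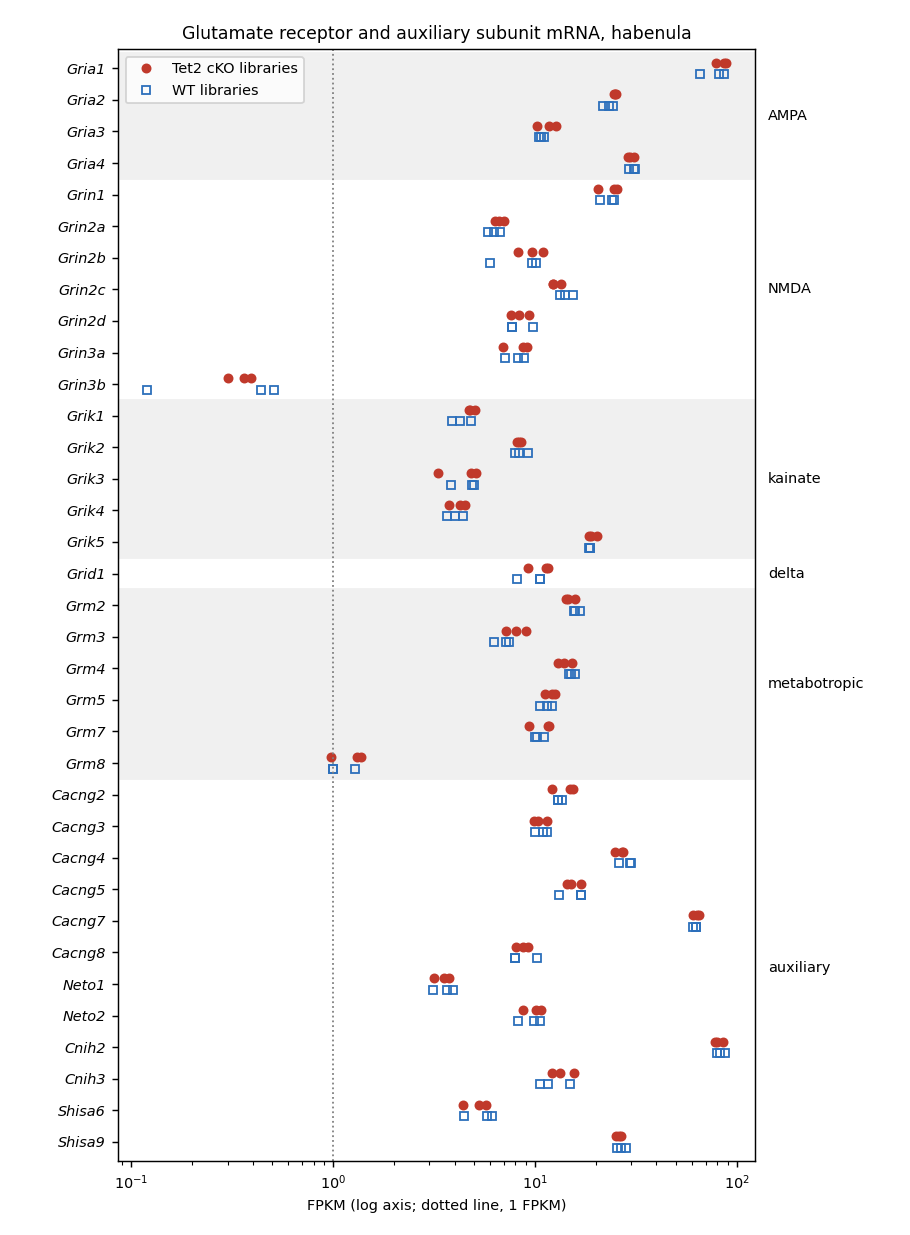
FPKM of each of the 35 genes on a log axis, by class, with 1 point per library (filled red circles, Tet2 cKO; open blue squares, WT). Cnih2, Gria1 and Cacng7 stand above 60 FPKM in every library of both genotypes, and Grin3b alone stands below 1 FPKM in all 6.

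These levels depend on gene length. The deposited exonic size joins all exons of a gene, and it was the length of the longest protein-coding transcript in GENCODE M21 2.27 times for Grin1 and 2.57 times for Grm8. Per kilobase of that transcript, Gria2 stood at 35.9 and Grin1 at 53.0 on the FPKM scale, Gria1 exceeded Cnih2 (88.6 and 83.8), and Grin1 moved to position 4 from position 8. Cnih2, Gria1 and Cacng7 held the first 3 positions either way.

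Among AMPA receptor genes, Gria1 had the highest level. Gria1, which encodes GluA1 (ENSMUSG00000020524, chromosome 11, 57011387 to 57330244 on GRCm38, plus strand), stood at 79.20, 86.85 and 88.78 FPKM in Tet2 cKO, against 81.76, 85.98 and 65.43 FPKM in WT. WT replicate 3 was the lowest of 6, and the groups overlapped. Gria2 encodes GluA2, whose RNA-edited pore residue limits calcium entry (ENSMUSG00000033981, chromosome 3, 80681450 to 80802835, minus strand). It stood at 24.54, 24.80 and 25.07 FPKM in Tet2 cKO, against 23.24, 24.35 and 21.81 FPKM in WT. The lowest Tet2 cKO library lay just above the highest WT library, so the groups did not overlap, but the log2 difference of 0.093 (95% interval -0.053 to 0.24) did not pass the edgeR test (unadjusted p = 0.187). Gria4, encoding GluA4, stood at 30.95, 29.49 and 28.98 FPKM in Tet2 cKO, against 31.08, 31.31 and 29.35 FPKM in WT. Gria3, encoding GluA3 from the X chromosome, averaged 11.6 ± 1.25 FPKM in Tet2 cKO and 10.8 ± 0.310 FPKM in WT (SD, n = 3 each).

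Gria1 took 54.1% to 58.0% of the summed AMPA receptor FPKM in Tet2 cKO and 51.3% to 56.5% in WT. Gria2 took 16.1% to 16.8% in Tet2 cKO and 15.8% to 17.1% in WT. The level of Gria1 was 3.23 to 3.54 times that of Gria2 in Tet2 cKO and 3.00 to 3.53 times in WT. On the length of the longest transcript, this ratio averaged 2.47 over the 6 libraries. The share of Gria1 was the lowest in WT replicate 3, and the shares of all 4 subunits overlapped between genotypes.

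Within the NMDA class, Grin1 encodes the obligatory GluN1 subunit. It stood at 20.43, 25.51 and 24.73 FPKM in Tet2 cKO, against 23.98, 24.55 and 20.99 FPKM in WT. Its low libraries were Tet2 cKO replicate 1 and WT replicate 3, and 13.5% of its exonic length overlaps Grin1os on the opposite strand. GluN2 subunits bind glutamate and set channel kinetics. Among them Grin2c, known from cerebellar granule cells, thalamus and astrocytes, had the highest level in each library. Grin2c (ENSMUSG00000020734, chromosome 11, 115249169 to 115267243, minus strand) stood at 13.45, 12.30 and 12.29 FPKM in Tet2 cKO, against 13.28, 14.03 and 15.50 FPKM in WT. It had the smallest p of any member (0.0542, unadjusted, edgeR) and a log2 difference of -0.18 (95% interval -0.36 to 0.0039), or -0.10 without WT replicate 3. Tet2 cKO replicate 1 lay above WT replicate 1, so the groups overlapped.

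Grin2b, encoding the GluN2B subunit with slow decay, had the widest spread over the 6 libraries among members above the filter. Grin2b (ENSMUSG00000030209, chromosome 6, 135713233 to 136173511, minus strand) stood at 8.20, 11.02 and 9.69 FPKM in Tet2 cKO, against 10.14, 9.68 and 6.02 FPKM in WT. The highest library was 1.83 times the lowest. WT replicate 3 and Tet2 cKO replicate 1 were the lowest. The ratio of Grin2b to Grin2a ran from 1.17 to 1.65 in Tet2 cKO and from 1.03 to 1.62 in WT. Grin2a, the GluN2A gene, averaged 6.66 ± 0.330 FPKM in Tet2 cKO and 6.27 ± 0.430 FPKM in WT (SD, n = 3 each). Grin2d, encoding GluN2D, averaged 8.42 ± 0.901 FPKM in Tet2 cKO and 8.39 ± 1.19 FPKM in WT. Of the summed GluN2 level, Grin2c took 32.1% to 37.1% in Tet2 cKO and 35.5% to 41.7% in WT, and Grin2b took 22.6% to 28.8% in Tet2 cKO and 16.2% to 27.1% in WT.

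GluN3 subunits bind glycine rather than glutamate, and their genes stood far apart in level. Grin3a averaged 8.26 ± 1.17 FPKM in Tet2 cKO and 8.04 ± 0.876 FPKM in WT (SD, n = 3 each). Grin3b stood at 0.30, 0.39 and 0.36 FPKM in Tet2 cKO, against 0.44, 0.51 and 0.12 FPKM in WT. These are 17, 23 and 21 counts in Tet2 cKO and 25, 27 and 7 counts in WT, and Grin3b was not tested. Exons of Tmem259 on the opposite strand cover 32.1% of its exonic length, and the strand setting of the counts is not given, so even this level is uncertain.

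**Figure D2:**
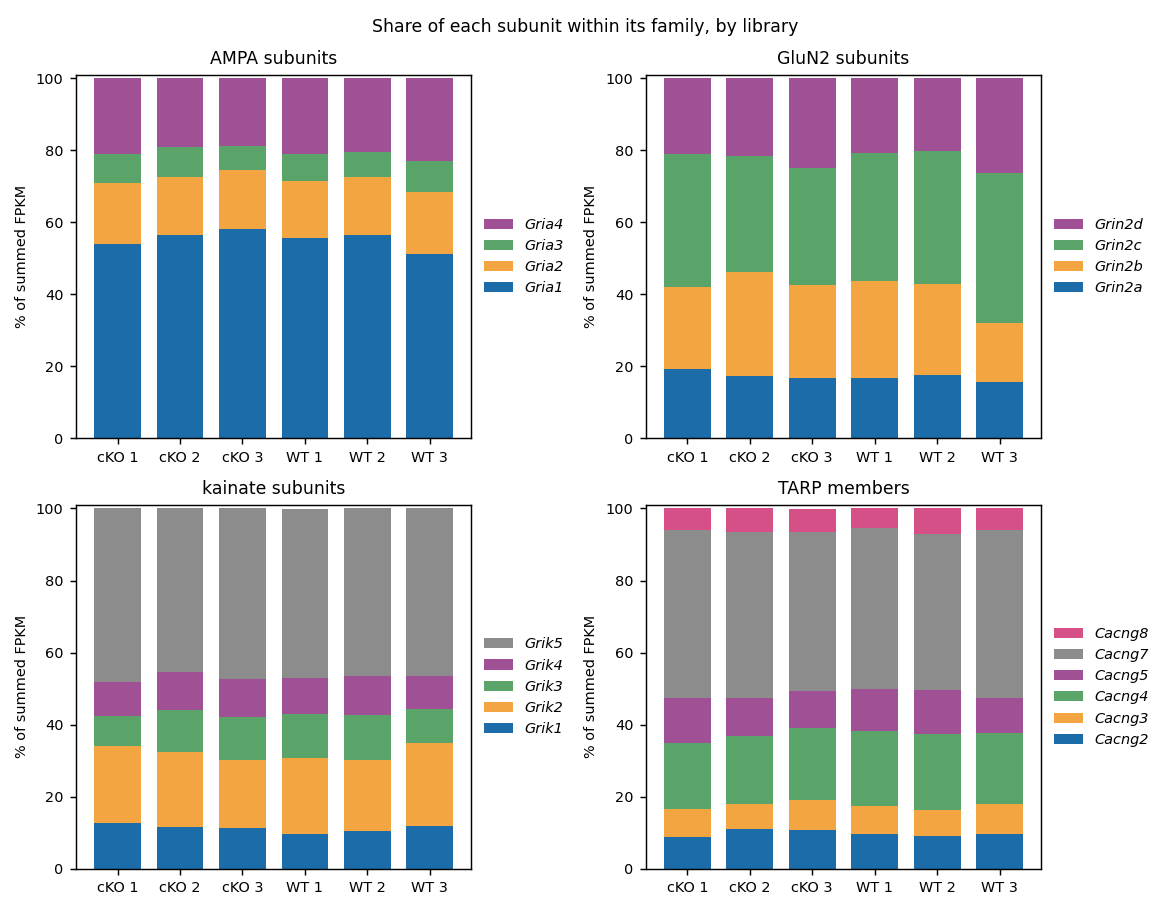
Share of each subunit in the summed FPKM of its family, in percent, for AMPA, GluN2, kainate and TARP genes, with 1 bar per library (Tet2 cKO left, WT right). Gria1, Grin2c, Grik5 and Cacng7 take the largest segment of their panels in every library, and WT replicate 3 shows the smallest Grin2b segment.

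Kainate receptor genes were led by Grik5, which encodes GluK5, a high-affinity subunit that forms channels only together with GluK1 to GluK3. Grik5 stood at 18.98, 18.62 and 20.33 FPKM in Tet2 cKO, against 18.63, 18.72 and 18.76 FPKM in WT, and took 45.5% to 48.1% of the class in Tet2 cKO and 46.4% to 46.9% in WT. Grik2, encoding GluK2, stood at 8.37, 8.52 and 8.18 FPKM in Tet2 cKO, against 8.36, 7.98 and 9.21 FPKM in WT. Both genes varied little among libraries. Grik1, encoding GluK1, stood at 5.03, 4.71 and 4.79 FPKM in Tet2 cKO, against 3.89, 4.23 and 4.80 FPKM in WT. WT replicate 3 alone lay within the range of the Tet2 cKO libraries. Its log2 difference was 0.16 (95% interval -0.055 to 0.38, unadjusted p = 0.127, edgeR). Without WT replicate 3 it was 0.26 (unadjusted p = 0.0139, adjusted p = 0.736, edgeR), and without WT replicate 1 it was 0.094. Grik3, encoding GluK3, stood at 3.30, 4.83 and 5.12 FPKM in Tet2 cKO, against 4.85, 4.99 and 3.84 FPKM in WT, with the low values in Tet2 cKO replicate 1 and WT replicate 3. Grik4, encoding GluK4, averaged 4.17 ± 0.363 FPKM in Tet2 cKO and 4.03 ± 0.365 FPKM in WT (SD, n = 3 each).

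Grid1 encodes GluD1, a synaptic organiser that binds secreted cerebellins. It stood at 9.19, 11.30 and 11.57 FPKM in Tet2 cKO, against 10.56, 10.65 and 8.13 FPKM in WT. The lowest values were again those of WT replicate 3 and Tet2 cKO replicate 1, and the log2 difference of 0.12 had a 95% interval of -0.16 to 0.40. Leaving out WT replicate 3 gave 0.014, and leaving out Tet2 cKO replicate 1 gave 0.22.

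The metabotropic members have different signalling partners and cell types. Grm2 and Grm3 (group II) and Grm4, Grm7 and Grm8 (group III) couple to Gi/o and are known as presynaptic brakes on release, Grm3 also as a receptor of astrocytes. Grm5 (group I) couples to Gq. Grm2 stood at 14.61, 14.21 and 15.81 FPKM in Tet2 cKO, against 15.64, 15.80 and 16.67 FPKM in WT, overlapping through Tet2 cKO replicate 3. Grm4 stood at 12.96, 13.86 and 15.22 FPKM in Tet2 cKO, against 15.82, 14.70 and 15.16 FPKM in WT, again overlapping through Tet2 cKO replicate 3. Their log2 differences were -0.12 (95% interval -0.28 to 0.046) and -0.13 (95% interval -0.31 to 0.051). They were -0.077 for Grm2 without WT replicate 3 and -0.072 for Grm4 without Tet2 cKO replicate 1. Grm3 (ENSMUSG00000003974, chromosome 5, 9485541 to 9725170, minus strand) stood at 7.15, 9.08 and 8.05 FPKM in Tet2 cKO, against 7.45, 7.20 and 6.27 FPKM in WT. Tet2 cKO replicate 1 lay below WT replicates 1 and 2. With 0.21, Grm3 had the highest log2 difference of the members (95% interval -0.053 to 0.47, unadjusted p = 0.105, edgeR), which was 0.12 without Tet2 cKO replicate 2.

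Grm5 ranged over 11.26 to 12.64 FPKM in Tet2 cKO and 10.57 to 12.08 FPKM in WT. Grm7 averaged 10.9 ± 1.34 FPKM in Tet2 cKO and 10.4 ± 0.578 FPKM in WT (SD, n = 3 each). Grm8 averaged 1.22 ± 0.212 FPKM in Tet2 cKO and 1.09 ± 0.162 FPKM in WT (SD, n = 3 each). Groups did not overlap for 2 of 31 shares within families, Grm3 and Grm4, where the FPKM of 3.34% of all genes lay higher and of 3.46% lower without overlap. Grm3 took 12.7%, 14.5% and 12.5% of the summed metabotropic FPKM in Tet2 cKO, against 11.8%, 11.9% and 10.5% in WT. Grm4 took 23.0%, 22.1% and 23.7% in Tet2 cKO, against 25.1%, 24.3% and 25.3% in WT. Shares within a class depend on each other, and these were not tested. The 12 astrocyte markers, all above 1 FPKM, summed to 637.1 to 655.7 FPKM in Tet2 cKO and to 614.3 to 651.6 FPKM in WT, with Aldoc at 303.86 FPKM in WT replicate 3. Their mean log2(FPKM + 1) was 5.19, 5.21 and 5.19 in Tet2 cKO, against 5.16, 5.12 and 5.05 in WT, without overlap and lowest in WT replicate 3, as Grm3 was. Of the 12, 5 were higher in every Tet2 cKO library than in every WT library, among them Aqp4 (55.32 to 62.50 FPKM in Tet2 cKO and 28.78 to 46.74 FPKM in WT) and Gja1 (31.65 to 31.89 FPKM in Tet2 cKO and 24.62 to 28.51 FPKM in WT), and 1 (Sox9) was lower. Unlike Grm3, Grin2c, also known from astrocytes, and Glul (glutamine synthetase) were highest in WT replicate 3, at 15.50 and 453.09 FPKM. Aldoc, Aqp4, Gja1, Sox9, Grin2c and Glul were picked here after their values were seen. The part of the astrocyte markers in the Grm3 values was not tested. In tissue libraries such as these, fewer cells of a type and less RNA per cell cannot be told apart.

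Among auxiliary subunits, Cnih2 and Cacng7 stood far above the rest. Cnih2, a cornichon that slows AMPA receptor deactivation (ENSMUSG00000024873, chromosome 19, 5092868 to 5098521, minus strand), stood at 79.82, 77.74 and 85.37 FPKM in Tet2 cKO, against 82.90, 80.04 and 87.40 FPKM in WT. Replicate 3 was the highest of each genotype, and the groups overlapped. Its relative Cnih3 stood at 15.61, 12.17 and 13.27 FPKM in Tet2 cKO, against 11.60, 14.98 and 10.59 FPKM in WT. These libraries were interleaved, and the level of Cnih2 was 5.11 to 6.43 times that of Cnih3 in Tet2 cKO and 5.34 to 8.25 times in WT.

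Transmembrane AMPA receptor regulatory proteins (TARPs) fall into type I (Cacng2, Cacng3, Cacng4 and Cacng8), which traffic and gate AMPA receptors at the synapse, and type II (Cacng5 and Cacng7), with weaker and more selective effects. The type II gene Cacng7 (ENSMUSG00000069806, chromosome 7, 3332955 to 3368221, plus strand) had the highest TARP level, at 63.51, 65.12 and 60.94 FPKM in Tet2 cKO, against 63.09, 60.85 and 62.92 FPKM in WT. Its highest library was 1.07 times its lowest, the narrowest ratio among the members above the filter. Cacng7 took 44.2% to 46.7% of the summed TARP FPKM in Tet2 cKO and 43.2% to 46.7% in WT. Cacng2, the stargazin gene, took 8.93% to 10.9% in Tet2 cKO and 9.19% to 9.61% in WT. The other TARP genes averaged 26.4 ± 1.29 FPKM (Cacng4), 15.5 ± 1.34 FPKM (Cacng5), 10.6 ± 0.834 FPKM (Cacng3) and 8.69 ± 0.606 FPKM (Cacng8) in Tet2 cKO. Their WT means were 28.5 ± 2.00, 15.7 ± 2.15, 10.8 ± 0.714 and 8.72 ± 1.31 FPKM in the same order, and Cacng2 averaged 14.2 ± 1.79 FPKM in Tet2 cKO and 13.2 ± 0.367 FPKM in WT (SD, n = 3 each).

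Neto proteins modulate kainate receptors, and Shisa proteins of the CKAMP family modulate AMPA receptor desensitisation. Neto2 averaged 9.84 ± 0.988 FPKM in Tet2 cKO and 9.60 ± 1.20 FPKM in WT, and Neto1 averaged 3.48 ± 0.295 FPKM in Tet2 cKO and 3.57 ± 0.409 FPKM in WT (SD, n = 3 each). Shisa9 averaged 25.9 ± 0.744 FPKM in Tet2 cKO and 26.8 ± 1.41 FPKM in WT, against 5.13 ± 0.657 FPKM in Tet2 cKO and 5.45 ± 0.902 FPKM in WT for Shisa6 (SD, n = 3 each). Neto2 exceeded Neto1, and Shisa9 exceeded Shisa6, in each of the 6 libraries.

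The comparison of Tet2 cKO with WT asks how gene expression in the habenula differs under that label, where whole-gene Tet2 was not lower. For the glutamate receptors and auxiliary subunits no difference passed the test. The edgeR quasi-likelihood test called 0 of 34 tested members at a Benjamini-Hochberg adjusted p under 0.05, as it called 0 of 14539 genes (0%). DESeq2 also called 0 members. At an unadjusted p under 0.05 there were 0 of 34 members, where the share over all genes was 2.57% (0.894% higher and 1.68% lower). Libraries did not overlap for 1 member higher in Tet2 cKO (Gria2) and for 0 members lower, where the shares over all genes were 3.34% higher and 3.46% lower. These counts lie at or near the background.

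Log2 differences of the 34 members ran from -0.18 (Grin2c) to 0.21 (Grm3), with a median of 0.022, against -0.0021 over all genes tested. Of these, 19 were positive and 15 negative. By class the median was 0.095 for AMPA, 0.024 for NMDA, 0.038 for kainate, 0.064 for metabotropic and -0.036 for auxiliary genes. The standard error of a member's log2 difference was 0.064 to 0.18, with a median of 0.098. Their 95% intervals reached from -0.42 (Grik3) to 0.56 (Grin2b) at the widest. For each member, differences within its own interval are compatible with these 3 libraries a group.

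**Figure D3:**
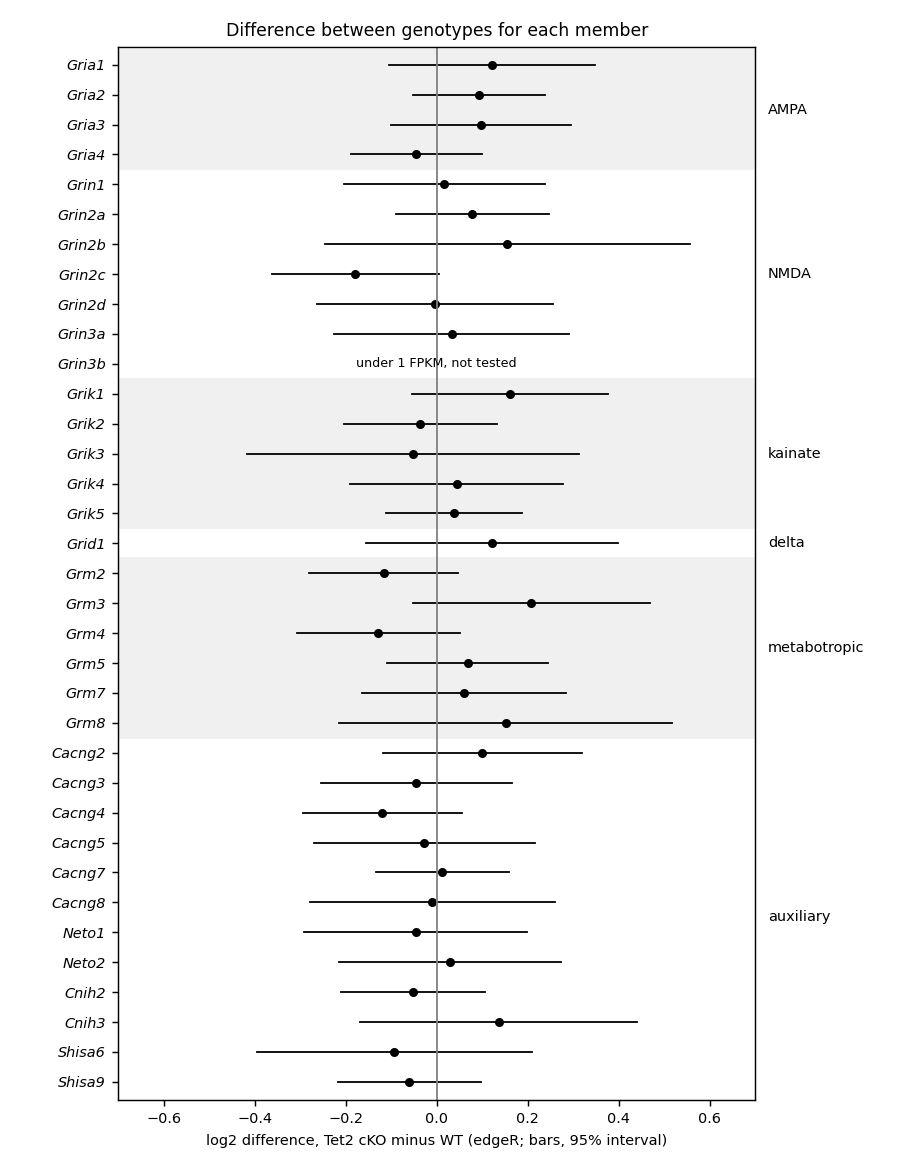
Log2 difference of Tet2 cKO minus WT for each member by class, as edgeR estimates (points) with 95% intervals (bars). Each of the 34 intervals includes 0, and Grin2b and Grik3 have the widest.

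The members also varied between libraries of 1 genotype. Tet2 cKO replicate 1 and WT replicate 3 were the pair with the lowest FPKM for 12 of 34 members (35.3%), against 17.1% of all genes tested. The 12 were Gria1, Grin1, Grin2b, Grin3a, Grik3, Grik4, Grid1, Grm3, Grm5, Grm7, Cacng2 and Cacng4. The same libraries were the pair at the negative end of the first principal component. They also had the highest mitochondrial shares of counts, 6.44% in Tet2 cKO replicate 1 and 7.66% in WT replicate 3, where the others had 5.43% to 6.10% in Tet2 cKO and 6.25% to 6.33% in WT. Over all genes tested, those with this lowest pair had a median gene span of 48.9 kb, against 17.2 kb for the rest, and among members the medians were 279 kb and 104 kb. Median exonic size was 6432 bases for that set over all genes and 3588 bases for the rest, while among members it was 6002 and 6053 bases. The part of mitochondrial share, gene span and exonic size in this pattern was not tested.

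WT replicate 3 alone was the lowest of 6 for 11 members and the highest for 6. The 6 were Grin2c, Grin2d, Grik2, Grm2, Neto1 and Cnih2. The share of lowest values (32.4%) lay near that over all genes (28.8%), and that of highest values was 17.6%, against 25.1%. Tet2 cKO replicate 1 was the lowest for 10 members (29.4%, against 12.3% of all genes). Tet2 cKO replicate 3 was the highest for 10 members (29.4%, against 13.1%). For 8 members (23.5%, against 13.6%) the highest was Tet2 cKO replicate 2. In WT replicate 3, pan-habenula markers summed to 114.6 FPKM. The other libraries had 154.1 to 202.1 FPKM in Tet2 cKO and 186.7 and 234.3 FPKM in WT. Lateral habenula markers in turn summed to 467.7 FPKM in WT replicate 3, the highest of 6. Medial ones summed to 441.0 FPKM there, within the range of the others. By mean log2(FPKM + 1), WT replicate 3 was the lowest of 6 for pan-habenula (3.91), lateral (3.64) and medial markers (3.18). Its GABAergic neuron markers summed to 65.7 FPKM, with 38.0 to 56.2 FPKM in Tet2 cKO and 36.2 and 45.3 FPKM in the other WT libraries. Tet2 cKO replicate 1, in contrast, had 202.1 FPKM of pan-habenula and 38.1 FPKM of GABAergic markers. Of 9 ependymal markers, 7 were lower in every Tet2 cKO library than in every WT library, and the list summed to 50.6, 56.7 and 46.8 FPKM in Tet2 cKO, against 61.7, 64.4 and 78.8 FPKM in WT. Choroid plexus markers summed to 829.4, 173.1 and 287.1 FPKM in Tet2 cKO, against 1408.2, 840.9 and 452.4 FPKM in WT, with overlap. Most of each sum was Ttr, at 799.3, 157.92 and 269.14 FPKM in Tet2 cKO and 1346.62, 802.26 and 430.48 FPKM in WT. The part of cell makeup in the members' values was not tested.

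**Figure D4:**
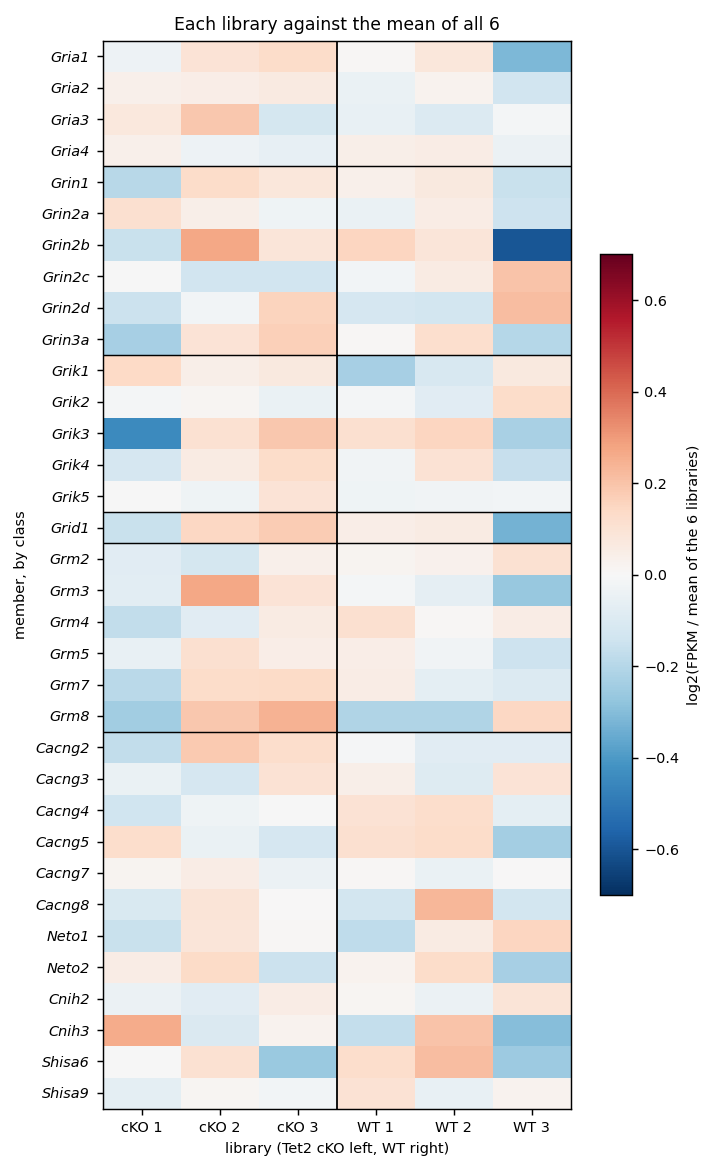
Log2 ratio of FPKM in each library to the mean of the 6 for the 34 members above 1 FPKM (Tet2 cKO left, WT right; horizontal lines divide the classes). Blue cells, below the mean, gather in Tet2 cKO replicate 1 and WT replicate 3, with the deepest for Grin2b in WT replicate 3.

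Leaving out a library brought up to 3 members to an unadjusted p under 0.05, none with an adjusted p under 0.05. Without WT replicate 3 there were 2 (Grik1 and Cacng4), where 5.95% of all genes fell under that p. Without Tet2 cKO replicate 1 there were 3 (Grin2c, Grm3 and Cacng2, at log2 differences of -0.22, 0.29 and 0.20), against 3.2% of all genes. Without WT replicate 1 it was Grin2c and without WT replicate 2 Cnih3, against 2.41% and 2.94% of all genes. Grin2b changed sign without WT replicate 3, to -0.037, against 0.16 with all libraries.

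Genes that act with these receptors were read from the same fit in 4 lists of 69 names, of which 68 were in the table and 66 were tested. No partner gene was called (smallest adjusted p = 0.9999), 33 were higher and 33 lower. At an unadjusted p under 0.05 there were 5 of 66, of which 2 were higher and 3 lower, where the shares over all genes were 2.57%, 0.894% and 1.68%. Of the 5, 4 came from the list of 6 secreted C1q-family ligands. That list was chosen with earlier results known, so the count cannot be read against these shares. Libraries did not overlap for 3 higher (Cbln4, Glud1 and Slc7a10) and 3 lower partner genes (C1ql3, Glul and Dlgap4), beside 3.34% and 3.46% of all genes. Postsynaptic scaffolds and receptor-binding proteins, 23 tested, had none at an unadjusted p under 0.05, and their median log2 difference was -0.00092. Nsf, the fusion ATPase that binds GluA2, had the highest level among them (93.38 to 103.49 FPKM in Tet2 cKO and 99.14 to 106.16 FPKM in WT). Genes of glutamate transport and metabolism, 17 tested, also had none under that p. Glul, the glutamine synthetase of astrocytes, led them with 368.11, 382.69 and 378.69 FPKM in Tet2 cKO, against 393.29, 396.26 and 453.09 FPKM in WT, at a log2 difference of -0.15 (unadjusted p = 0.0847, edgeR) and of -0.066 without WT replicate 3. In the list of assembly and trafficking genes, 20 tested, Olfm1 was the highest (117 FPKM over 6 libraries). Nptxr, a neuronal pentraxin receptor that clusters AMPA receptors, stood at 77.72, 79.48 and 94.01 FPKM in Tet2 cKO, against 113.71, 87.12 and 104.56 FPKM in WT, with a log2 difference of -0.29 (unadjusted p = 0.0249, edgeR).

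The other 4 genes with an unadjusted p under 0.05 belonged to the 6 secreted C1q-family ligands, a list chosen with earlier results known. Cbln1 and Cbln2 bridge neurexins to delta receptors, and C1q-like proteins are known to recruit kainate receptors and to bind adhesion GPCRs. Cbln1 stood at 45.86, 39.11 and 52.00 FPKM in Tet2 cKO, against 33.60, 33.07 and 39.45 FPKM in WT, with a log2 difference of 0.36 (95% interval 0.11 to 0.60). Only Tet2 cKO replicate 2 and WT replicate 3 overlapped. Cbln4 stood at 43.35, 41.33 and 49.45 FPKM in Tet2 cKO, against 31.78, 36.64 and 41.09 FPKM in WT, with a log2 difference of 0.28 (95% interval 0.052 to 0.52), and its groups did not overlap. Cbln2 stood at 40.16, 42.54 and 50.05 FPKM in Tet2 cKO, against 36.28, 47.93 and 30.46 FPKM in WT. Its WT libraries spread more widely, and its log2 difference was 0.20 (95% interval -0.13 to 0.54), with 0.076 without WT replicate 3 and 0.39 without WT replicate 2.

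The C1q-like genes had negative log2 differences. C1ql3 had the smallest p of all partner genes (0.00267, unadjusted, edgeR). It stood at 10.04, 11.03 and 12.68 FPKM in Tet2 cKO, against 16.85, 13.78 and 15.23 FPKM in WT, a log2 difference of -0.45 (95% interval -0.70 to -0.20), and every Tet2 cKO library lay below every WT library. C1ql2 stood at 6.54, 5.16 and 4.48 FPKM in Tet2 cKO, against 9.49, 5.44 and 8.91 FPKM in WT, and C1ql1 stood at 2.65, 1.67 and 2.81 FPKM in Tet2 cKO, against 2.75, 3.42 and 3.86 FPKM in WT. Their log2 differences were -0.57 (95% interval -1.05 to -0.094) and -0.50 (95% interval -1.03 to 0.021), and that of C1ql1 was -0.30 without Tet2 cKO replicate 2. The adjusted p was 0.9999 for each of the 6 genes, so none passed. C1ql2 also marks the dentate gyrus beside the habenula. C1ql2 is itself among the 12 hippocampal and dentate markers. The other 11, of which 5 averaged 1 FPKM or more, summed to 67.6 to 74.9 FPKM in Tet2 cKO and 67.8 to 73.2 FPKM in WT, and their part in the C1ql2 values was not tested.

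**Figure D5:**
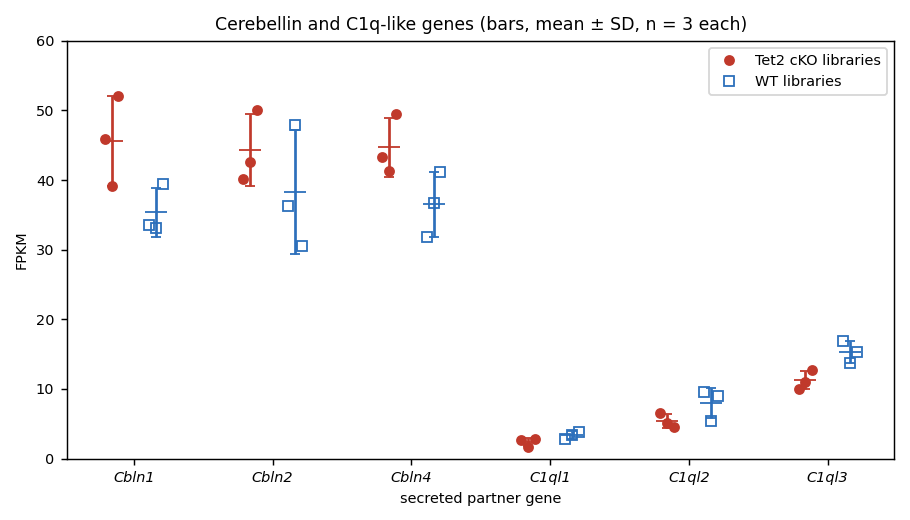
FPKM of 3 cerebellin and 3 C1q-like genes, with 1 point per library and the mean ± SD of 3 libraries (red circles, Tet2 cKO left; open blue squares, WT right). The groups do not overlap for Cbln4 and C1ql3, and no gene passed the test over all genes.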

How the data were processed

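RNA-seq of total RNA from 6 habenula samples was analysed from 1 deposited table. The submitters' processing notes list SAMtools 0.1.19, HISAT2 2.0.1, FastQC 0.10.1 and cutadapt 1.9.1 and the build mm10. Strandedness, the read counter and the annotation release were not given in the sources used here. The deposited counts are whole numbers, and the FPKM values made by the authors equal the count scaled to the deposited exonic size and the library total, within 0.0051 for 100% of values. No per-sample column was left out.

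Genes averaging 1 FPKM or more over the 6 libraries were tested on counts with edgeR 4.0.16 (quasi-likelihood, TMM, two-sided, no covariate) in R 4.3.3, adjusted by Benjamini-Hochberg over all 14539 genes. DESeq2 1.42.0 was an alternative. The method was tested on simulated counts with changes larger than any seen among the members, so that test does not bear on changes of their size. Positions and overlaps come from GENCODE M21 (GRCm38), joined by gene identifier for 35 of 35 members, of which 11 share exonic bases with a gene on the opposite strand.

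The members and gene lists were chosen with earlier results of these data known. Values in every library are given for the 2 highest members of each class, members whose groups do not overlap, the 5 with the smallest p, the 5 most variable and those below the filter. Partner genes named are the highest of each list and the 6 with the smallest p. Other alternatives are described in the closing section.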

Additional observations from a re-analysis of the deposited data

How the results depend on the processing

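Leaving out each library, other scaling, DESeq2, weaker filters and the replicate block, 12 alternatives in all, gave 0 calls among members and 0 among partner genes. Over all genes, calls numbered 4 with DESeq2, 49 with no filter on low values and 2 at a mean of at least 0.1 FPKM, against 0, and were 0 to 3 when each library was left out (1 without WT replicate 2 and 3 without WT replicate 3). The replicate block gave 0 calls over all genes and a median of 0.020 for the members. Deviations of same-numbered libraries correlated at -0.041, 0.18 and -0.10, within the -0.20 to 0.19 of libraries with unlike numbers. The numbers are therefore not taken as pairs. The sign held under every alternative for 20 of 34 members, 13 higher and 7 lower. Leaving out each library changed it for the other 14, with log2 differences of -0.045 to 0.11 for Grin1, -0.037 to 0.29 for Grin2b, -0.086 to 0.13 for Grin2d, -0.043 to 0.15 for Grin3a, -0.086 to 0.034 for Grik2, -0.17 to 0.12 for Grik3, -0.011 to 0.12 for Grik4, -0.11 to 0.0069 for Cacng3, -0.13 to 0.030 for Cacng5, -0.010 to 0.040 for Cacng7, -0.068 to 0.11 for Cacng8, -0.13 to 0.038 for Neto1, -0.057 to 0.11 for Neto2 and -0.21 to 0.0068 for Shisa6, and -0.068 to 0.00923 for the partner gene Nsf. Grin2d also changed sign with library totals alone (0.0039) and with no filter (0.00025). The cause was not tested. The members' median ran from -0.0018 (without Tet2 cKO replicate 2) to 0.050 (without Tet2 cKO replicate 1). The AMPA median was 0.042 without WT replicate 3, and the kainate median was 0.12 without Tet2 cKO replicate 1 and -0.0085 without Tet2 cKO replicate 3. Without length in the level, Gria1 took 42.7% of AMPA counts in Tet2 cKO and 41.5% in WT, Grin2b took 49.8% in Tet2 cKO and 46.6% in WT of GluN2 counts, and Grik2 took 36.0% in Tet2 cKO and 37.2% in WT of kainate counts. Level per longest transcript was added after the data were seen. Of 310 share values under alternatives, 96 moved by more than 1 SD. The 186 that leave out a library could not move that far, because leaving out 1 of 3 libraries always shifts their mean by less. Those 186 are therefore no check on the shares.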
